A study of Mus musculus with 17 samples.

Results

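The regions described here are stretches of chromatin on chromosomes 1 to 19 that the authors classed as gaining acetylation of histone H3 (H3K27ac) when BRG1 was removed, and that lay more than 10 kb from any region whose H3K27ac they classed as common to both genotypes. They were chosen by this distance, measured from edge to edge in build mm9, and numbered 263 of the 955 gained regions on the autosomes. The H3K27ac lists rest on spermatogenic cells from testes of mice at postnatal day 12 (P12) on a mixed background, with 2 libraries from mice that keep BRG1 (Brg1WT) and 2 from a conditional knockout made with Mvh-cre (Brg1cKO), a Cre driver of germ cells. A single input library served both genotypes. BRG1 peaks came from other mice, wild type CD1 animals at P12 and at postnatal day 18 (P18), with 2 ChIP libraries at each age, so no BRG1 value belongs to the knockout or to its strain background. Chromatin was digested with micrococcal nuclease (MNase) in every library. Per the labels, the H3K27ac classes belong to both libraries of each genotype. The region names carry ko1 in every gained, wt1 in every lost and wt2_ko2 in every common region, and whether these marks name single libraries or sets of regions is not known, so the gained class may not rest on both libraries. No list carries a value per library, an error between replicates or a read depth. The lists name no genes, so neither the cell type nor the removal of BRG1 was checked against marker genes, and regions are given by mm9 position counted from 1.

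BRG1 (SMARCA4) is an ATPase of SWI/SNF complexes, which use ATP to slide or evict nucleosomes and so change how accessible DNA is. H3K27ac is laid down by the acetyltransferases CBP and p300, is removed by histone deacetylases, and marks active promoters and enhancers, which usually occur in groups around transcribed genes. Polycomb repression works on the same lysine, since its methylated form cannot be acetylated at the same time. MNase cuts the linker DNA between nucleosomes, so a marked stretch in such data tends to be one or a few nucleosomes long.

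Gained regions were a small part of the deposited H3K27ac regions. On the autosomes, 955 of 169104 common, gained and lost regions were gained (0.565%) and 768 were lost (0.454%). These classes are the authors' own calls from the contrast that also chose the 263 regions, and nothing about the strength of the gain is read from them. The 263 made up 27.5% of the autosomal gained regions (exact Clopper-Pearson 95% interval 24.7 to 30.5, counting error only). The same distance picked 141 lost regions, 18.4% of all autosomal lost regions (15.7 to 21.3). Because the gap is the rule, these shares are descriptions and were not tested.

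Most of the 263 regions lay only moderately beyond the 10 kb limit. Their gap to the nearest common region had a median of 20.9 kb and quartiles of 13.5 and 38.7 kb. Between 10 and 20 kb lay 123 of them (46.8%), between 20 and 50 kb 91 (34.6%), between 50 and 100 kb 35 (13.3%), and beyond 100 kb 14 (5.32%). The 141 lost regions picked in the same way had the same median gap, 20.9 kb, with quartiles of 14.3 and 34.6 kb. The median gap of the other 692 gained regions was 2.42 kb.

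**Figure D1:**
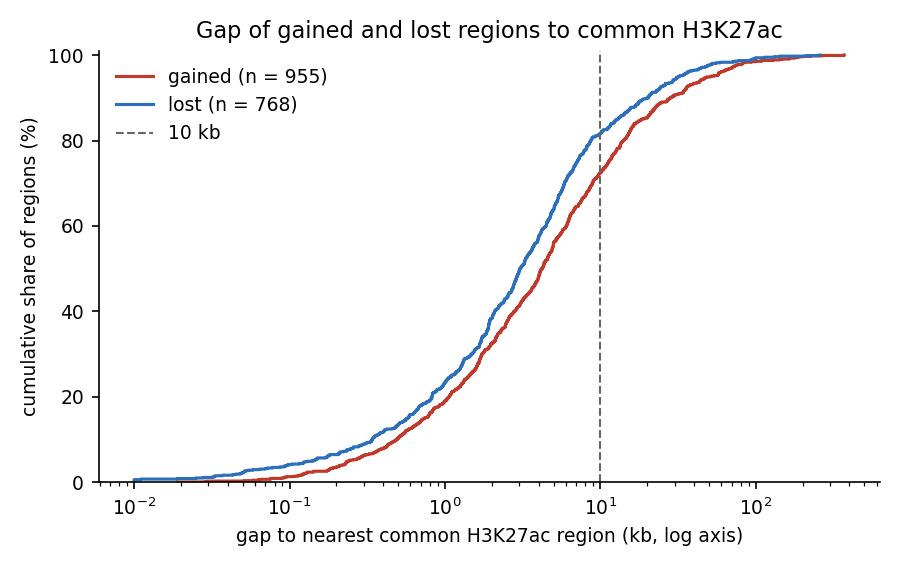
Cumulative share of the 955 gained and 768 lost autosomal H3K27ac regions (y axis, %) by the gap to the nearest common region (x axis, kb, log axis), with lost regions that touch or overlap a common region drawn at the left edge. The gained curve lies to the right of the lost curve, and beyond the dashed line at 10 kb lie 27.5% of gained and 18.4% of lost regions.

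The limit falls in a continuous run of gaps. The first regions inside it lay at chr11:66208186-66208355, at chr2:142953239-142953309 and at chr2:77569663-77569845, with gaps of 10095, 10118 and 10139 bp. The nearest ones left out lay at chr6:30620373-30620450, at chr19:29978001-29978134 and at chr3:94302945-94303144, with gaps of 9948, 9891 and 9864 bp. No break in the distances separates the remote regions from the other gained regions at 10 kb.

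The most remote regions sat in long stretches without common H3K27ac. The largest gap was 371 kb, for a region of 94 bp at chr2:39717128-39717221, which had its next common region on the other side at 489 kb. A region at chr7:20897223-20897404 had gaps of 267 kb on the left and 2662 kb on the right. At chr17:61903453-61903670 the gaps were 225 and 454 kb, and at chr2:111840214-111840257 they were 208 and 200.3 kb. The fifth, at chr7:5326991-5327031, had gaps of 188 and 653 kb. These 5 regions were 94, 182, 218, 44 and 41 bp wide, so none of them was among the widest.

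All 263 regions had a common region on both sides, and nearly each of them was alone in its stretch. They fell into 258 stretches free of common H3K27ac, of which 253 held 1 region and 5 held 2. How many would be alone in any list this sparse was not computed. Counted per region, the median length of the stretch was 77.1 kb, from 21.4 kb to 2929 kb. The common regions nearest to the 263 had a median width of 238 bp. This was below the median of 271 bp for all autosomal common regions and above their lower quartile of 220 bp. At most 150 bp wide were 4.56% of these neighbours and 4.86% of all common regions, so the nearest stable mark was seldom a sliver. Measured to common regions of at least 100 bp only, 264 gained regions lay beyond 10 kb.

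Remote sequence is extensive, and gained regions were sparse in it. Between the first and last common region of each autosome, 1176 of 2410 Mb (48.8%) lay more than 10 kb from common H3K27ac. This territory held 27.5% of gained regions, 18.2% of lost regions (140 of 768), 7.23% of the 18336 autosomal P12 BRG1 peaks and 2.42% of the 3020 P18 BRG1 peaks. Gained regions occurred at 22.4 per 100 Mb in the remote territory and at 56.1 per 100 Mb within 10 kb of common regions. For lost regions these densities were 11.9 and 50.8 per 100 Mb. The remote territory also holds sequence to which reads cannot be assigned, whose length was not measured here.

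The 263 regions lay on every autosome, in numbers that differed from one to another. Chromosome 2 held 24, chromosomes 3 and 4 held 22 each, chromosome 1 held 21 and chromosome 9 held 20, while chromosome 12 held 6 and chromosome 11 held 7. As a share of the gained regions of a chromosome, the lowest value was 13.2% on chromosome 11 (7 of 53, interval 5.48 to 25.3). The highest was 44.1% on chromosome 18 (15 of 34, 27.2 to 62.1). Chromosome 11 had the lowest share of its span remote, 34.3%. Chromosome 12 had 52.6% of its span remote and 15.4% of its gained regions there (6 of 39, 5.86 to 30.5). The intervals of chromosomes 12 and 18 include the 27.5% found over all autosomes, while that of chromosome 11 lies below it. These chromosomes were named for their extreme values, and differences between chromosomes were not tested. Per 100 Mb of remote territory, the density ran from 9.66 regions on chromosome 12 to 40.4 on chromosome 9 and 44.1 on chromosome 19.

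**Figure D2:**
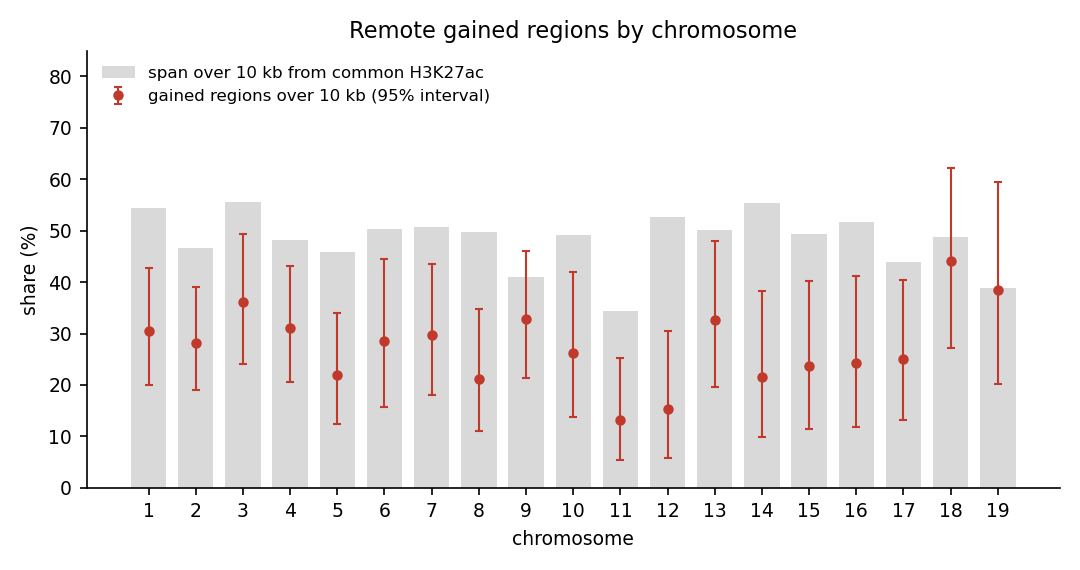
For each autosome (x axis), the grey bar gives the share of its span that lies more than 10 kb from common H3K27ac and the red point the share of its gained regions that lie there, with exact 95% intervals (y axis, %). The points lie below the top of the bar on 19 of 19 chromosomes, narrowly so on chromosome 19 (38.5% against 38.9%). The whole interval lies below it on 16 chromosomes and reaches above it on chromosomes 9, 18 and 19.

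The remote gained regions were short. Their median width was 141 bp (95% interval from binomial ranks 128 to 153), with quartiles of 71 and 203 bp, and together they covered 37.8 kb. The other gained regions had a median width of 152 bp (145 to 166), the remote lost regions 151 bp (126 to 178), and common regions 271 bp. Of the 263, 49 (18.6%) were narrower than 50 bp, 13 were at most 10 bp wide, and 72 (27.4%) reached 200 bp. Widths under 50 bp made up 15.0% of the other gained regions, 15.6% of the remote lost regions and 1.11% of common regions. Width comes from the contrast that chose the regions, and these values were not tested.

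**Figure D3:**
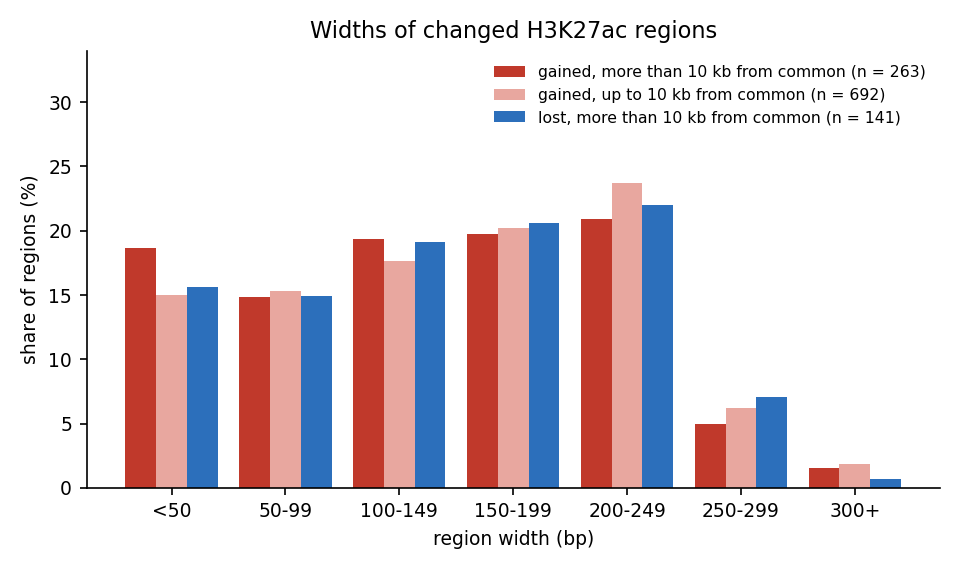
Share of regions (y axis, %) by width class in bp (x axis) for gained regions more than 10 kb from common H3K27ac, the other gained regions and lost regions more than 10 kb away. In the remote gained regions 18.6% were under 50 bp, 20.9% lay between 200 and 249 bp, and 4 of 263 reached 300 bp.

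A single remote region stood far above the others in width. It lay at chr6:19972501-19974221, was 1721 bp wide, and had gaps to common H3K27ac of 74.5 kb on the left and 152 kb on the right. The next widest was 369 bp, at chr5:86932060-86932428, 11.5 kb from a common region. The following ones were 364 bp at chr18:5790563-5790926, 349 bp at chr9:103633669-103634017, and 299 bp at chr4:21385395-21385693. Their gaps were 11.6, 21.0 and 24.5 kb. The wide region on chromosome 6 was therefore the only one of these 5 more than 25 kb from stable acetylation, and its nearest P12 peak of BRG1 was 1173 kb away.

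The median width lay between 128 and 165 bp at all distances from stable H3K27ac. It was 147 bp for regions 10 to 20 kb away, 128 bp at 20 to 50 kb, 150 bp at 50 to 100 kb and 165 bp for the 14 beyond 100 kb. Narrow regions under 50 bp numbered 21, 22, 3 and 3 in these classes. Remote lost regions had medians of 151, 145, 146.5 and 196 bp in the same classes, the last from 6 regions.

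Over windows wider than the 10 kb of the rule, the remote gained regions had fewer common regions than the other gained regions. This follows at least in part from the rule, and it was not tested. Within 100 kb on either side they had a median of 7 common regions (quartiles 3 and 12.5), and 14 had none. The other gained regions had a median of 22.5. Within 1000 kb the medians were 100 common regions for the remote gained regions and 187.5 for the other gained regions. Remote lost regions had a median of 123 within 1000 kb and 7 within 100 kb. In each class the counts varied widely, from quartiles of 52.5 and 166 within 1000 kb for the remote gained regions to 67 and 180 for the remote lost ones.

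The next question was whether BRG1 binds near these regions in wild type cells. Few changed regions of any class overlapped BRG1. The share expected for any stretches this short was not computed, so the counts do not show that changed regions avoid BRG1. Of the 263, 1 overlapped a P12 BRG1 peak (0.38%, exact 95% interval 0.00963 to 2.10) and 0 overlapped a P18 peak (upper bound 1.39%). The P12 overlaps numbered 1 of 141 remote lost regions (0.709%), 12 of the other 692 gained regions (1.73%) and 8 of the other 627 lost regions (1.28%), all within that P12 interval. Within 10 kb of a P12 peak lay 5 (1.90%, 0.62 to 4.38), within 50 kb 80 (30.4%, 24.9 to 36.4) and within 100 kb 45.2% (39.1 to 51.5). The median distance to a P12 peak was 115 kb (93.7 to 144), with quartiles of 38.7 and 279 kb, and 13 regions lay more than 1000 kb away.

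BRG1 peaks at P18 were farther off still. Their median distance was 414 kb (328 to 516), the closest was 13.3 kb away, and 72 of the 263 regions had none within 1000 kb. Within 50 kb lay 20 regions (7.60%, 4.71 to 11.5), and all 20 also had a P12 peak within 50 kb. The P18 list is shorter than the P12 list, 3020 against 18336 autosomal peaks, so these distances do not compare the ages.

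Remote gained and remote lost regions did not differ detectably in how often BRG1 lay within 50 kb. At P12 the share was 80 of 263 gained (30.4%) and 43 of 141 lost regions (30.5%), which gives an odds ratio of 0.996 (95% interval 0.625 to 1.60) and an adjusted p = 1 over 2 tests by the two-sided exact test of Fisher. At P18 it was 20 of 263 (7.60%) and 10 of 141 (7.09%), which gives 1.08 (0.465 to 2.66) and, by the same exact test, an adjusted p = 1. The intervals leave room for differences of more than 1.5-fold in odds, so these tests do not show that the classes are alike. Regions are not replicates, and the p-values describe the lists and not the genotypes.

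At the shorter distance of 10 kb, one of several alternatives run, the P12 shares differed. Within 10 kb of a P12 peak lay 5 of 263 remote gained regions (1.90%) and 10 of 141 remote lost regions (7.09%), with gained odds 0.255 times the lost odds (0.0669 to 0.838) and an adjusted p = 0.0244 over 2 tests by the same exact test. Adjusted p-values over the alternatives for the P12 comparison ran from 0.0244 to 1, and no other alternative passed 0.05. The difference rests on 15 regions in all. Its adjustment covers the 2 ages at this distance and not the search over distances and other settings, so it does not settle whether the classes differ. At 100 kb the shares were 45.2% and 49.6% (odds ratio 0.839, adjusted p = 0.654 by the same exact test). The other gained regions had a P12 peak within 10 kb in 27.6% and within 50 kb in 62.6% of cases, which was not tested, because 58.8% of autosomal P12 peaks overlap a common region and the rule sets the distance to those.

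**Figure D4:**
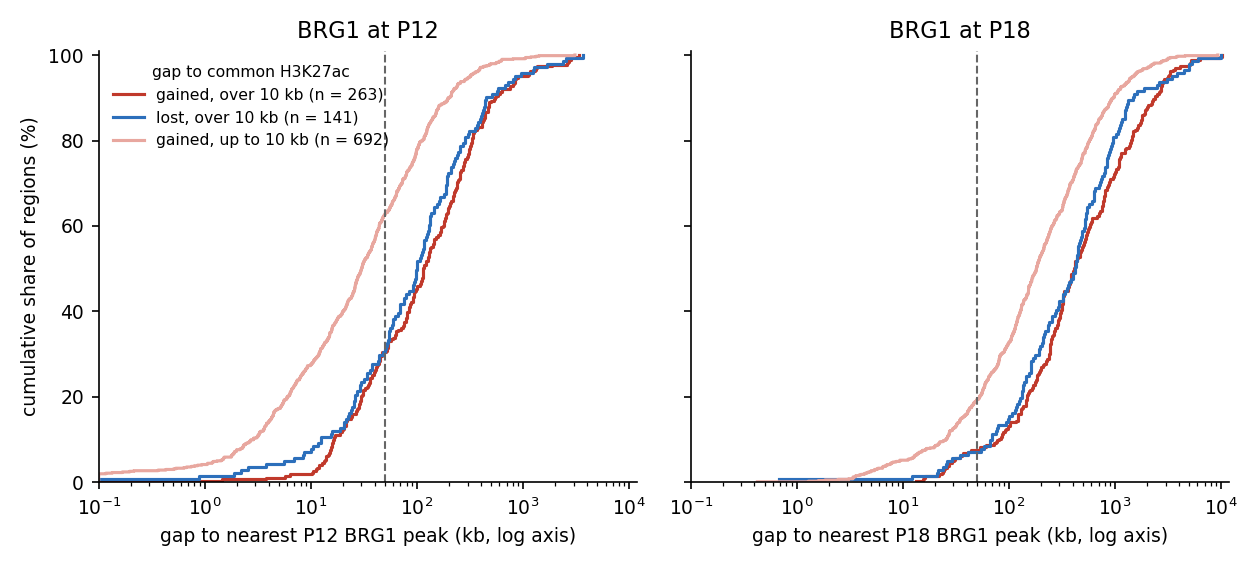
Cumulative share of regions (y axis, %) by the gap to the nearest BRG1 peak at P12 (left) or P18 (right), in kb on a log axis, with regions that overlap a peak drawn at the left edge and a dashed line at 50 kb. Remote gained and remote lost regions meet at 30.4% and 30.5% on the P12 line, while 62.6% of the other gained regions lie within that distance.

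Regions farther from stable acetylation were also farther from BRG1. Of the 123 regions 10 to 20 kb from common H3K27ac, 56 (45.5%) had a P12 peak within 50 kb, and of the 91 regions at 20 to 50 kb, 24 (26.4%) did. None of the 49 regions beyond 50 kb did, and the closest P12 peak to any of them was 61.5 kb away. Remote lost regions gave 24 of 63 (38.1%), 19 of 60 (31.7%) and 0 of 18 in the same 3 classes. The median distance to a P12 peak rose from 63.7 kb in the first class to 356 kb beyond 100 kb. BRG1 and common H3K27ac share sites, so the distances are linked, and this trend is given as a description.

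Where BRG1 lay near a remote gained region, it sat on stable acetylation about as often as P12 peaks generally do. The 80 regions with a P12 peak within 50 kb had 76 distinct nearest peaks among them, and for 46 of the 80 (57.5%) that peak overlapped a common H3K27ac region. For the remote lost regions this held for 16 of 43 (37.2%), a contrast seen after the values were known and not tested. Among all autosomal P12 peaks the share was 58.8%. For 14 of the 263 regions, the nearest P12 peak overlapped the very common region that was nearest to them. A P12 peak was nearer than any common region for 23 (8.75%), at a median of 15.8 kb, against 19 of 141 remote lost regions (13.5%).

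**Figure D5:**
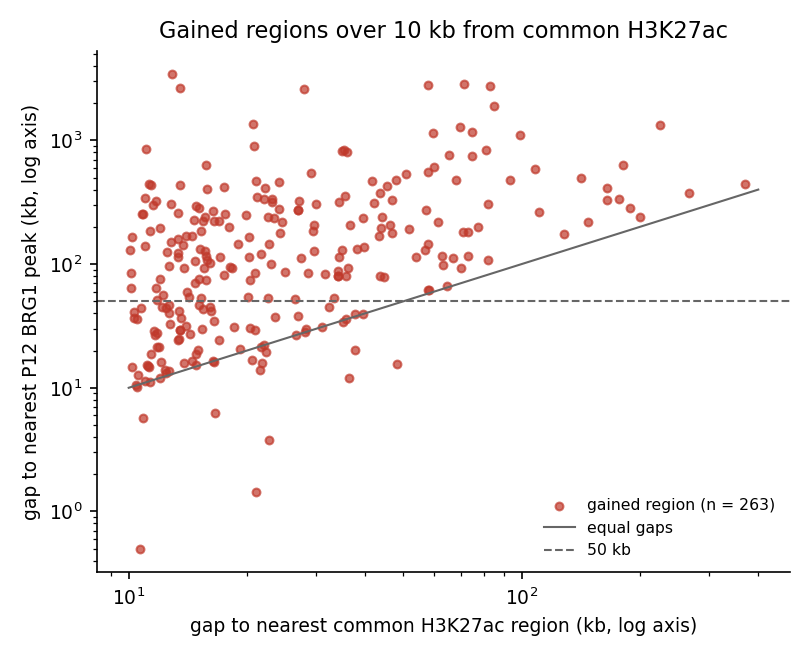
Each of the 263 remote gained regions by its gap to the nearest common H3K27ac region (x axis, kb, log axis) and to the nearest P12 BRG1 peak (y axis, kb, log axis), with the 1 region that overlaps a peak drawn at the lowest point. The 23 points under the solid line of equal gaps are nearer to BRG1 than to common H3K27ac, and no region beyond 50 kb on the x axis falls under the dashed line at 50 kb.

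The 5 regions closest to BRG1 at P12 had peaks off stable acetylation, which follows from the rule. A short peak this close to a region more than 10 kb from common H3K27ac cannot overlap common H3K27ac. The one overlap was at chr12:83717667-83717796, where all 130 bp lay inside a peak of 1077 bp. That peak had a −log10 q, which gives the significance of a peak call, of 4.47. This was above the median of 4.05 for all autosomal P12 peaks, and the peak lay 10.6 kb from common H3K27ac. The second region, at chr19:34600034-34600188, was 1.45 kb from a peak with a −log10 q of 3.91. A region at chr11:64253954-64254119 lay 3.76 kb from a peak with a value of 3.21, and one at chr6:108514859-108514895 lay 5.66 kb from a peak with a value of 1.59. The fifth, at chr8:122459121-122459300, lay 6.30 kb from a peak with a value of 2.21. Their peaks were between 10.1 and 26.6 kb from common H3K27ac, and 4 of the 5 had a −log10 q below the median.

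The regions closest to BRG1 at P18 had a P12 peak at almost the same distance. At chr6:8195369-8195602, the P18 peak was 13.259 kb and the P12 peak 13.254 kb away, and the P12 peak overlapped common H3K27ac. At chr1:13564032-13564184 the distances were 15.5 and 15.0 kb, again to a P12 peak on common H3K27ac, with a −log10 q of 9.40. At chr13:43510065-43510202 they were 15.848 and 15.809 kb, and there the P12 peak lay 16.0 kb from common H3K27ac, with a value of 8.19.

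Few remote gained regions had another one close by, but the share expected of so sparse a list was not computed. The counts therefore do not show that these regions avoid each other. The median gap from one to the next was 2409 kb, and 12 of 263 (4.56%) had another within 100 kb. These gaps count remote gained regions only. To any other gained region the median gap was 949 kb, against 651 kb for the gained regions up to 10 kb from common H3K27ac. The closest pair lay 0.171 kb apart on chromosome 3, at chr3:100089507-100089575 and chr3:100089747-100089791, 58.0 and 57.8 kb from common H3K27ac. The second pair lay 4.64 kb apart on chromosome 11, at chr11:83531450-83531576 and chr11:83536213-83536333. The third lay 17.5 kb apart on chromosome 7, at chr7:46743169-46743369 and chr7:46760904-46761123. Each of these 3 pairs shared 1 stretch free of common H3K27ac, and in each the nearest P12 peak overlapped common H3K27ac.

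A lost region seldom lay close to a remote gained region, but the share expected at any position was not computed. The counts therefore do not show that gains and losses avoid each other. A lost region lay within 10 kb of 2 of the 263 regions and within 100 kb of 13 (4.94%), and the median distance was 1594 kb. For the other gained regions 9.97% had a lost region within 100 kb and the median distance was 827 kb. Lost regions were themselves sparser in the remote territory, at 11.9 per 100 Mb against 50.8 within 10 kb of common regions. The contrast between the gained classes was not tested. The nearest meeting was on chromosome 9, where a gained region of 2 bp (chr9:103232670-103232671) lay 4.58 kb from a lost region. Next came a gained region of 188 bp at chr8:90141958-90142145 lay 7.78 kb from one, and a region of 44 bp at chr19:50315676-50315719 lay 14.3 kb from one.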

How the data were processed

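H3K27ac, BRG1, H2AK119ub1 and input libraries make up the series, and 5 deposited region lists were used here: common, gained and lost H3K27ac regions and BRG1 peaks at P12 and P18. Per the submitters' processing notes, reads were handled in build mm9 with Bowtie, Bowtie2, SAMtools, Picard, deepTools 2.5.2 and MACS2, with no role or order given. Per the labels, each list belongs to both libraries of its group or groups. Whether each H3K27ac class was called from both libraries together is not known. The names inside each list all carry one mark, ko1 for gained, wt1 for lost, wt2_ko2 for common, P12B1 and P18B2 for BRG1, which may name a library or a set of regions; this could not be settled. The BRG1 names state a cutoff of 0.05. The −log10 q of BRG1 peaks was used as the authors deposited it, to describe and filter peaks. The score the authors deposited for H3K27ac regions has no known scale and was not used. No genome of build mm9 was used here, so no sequence or gene is given.

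Gaps were counted in bp between region edges, and overlap meant at least 1 bp. Shares carry exact Clopper-Pearson 95% intervals. Counts of remote gained and lost regions were tested by Fisher's exact method, two-sided (scipy 1.17.1, numpy 2.4.6, pandas 2.3.3), adjusted by Benjamini-Hochberg over 2 tests. The distance and merging code was checked against bedtools on simulated regions, and the odds ratio intervals on simulated counts. Named regions were the 5 most remote, the 5 widest, the 5 nearest to P12 BRG1, 3 each nearest to P18 BRG1 and to lost regions, the 3 closest pairs, and 3 on either side of the 10 kb limit. The rule, the distances and the comparisons were chosen with earlier results of these data known. The lists give no read depth.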

Additional observations from a re-analysis of the deposited data

How the results depend on the processing

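Across 36 recomputed values, 21 changed neither direction nor call, or moved by no more than their interval or 1.5 times their count. The number of remote gained regions was 420 with a gap over 5000 bp and 140 with a gap over 20000 bp, so it depends on the limit. It was 214 among regions of at least 50 bp, where the median width was 159 bp in place of 141 bp. At the main settings both odds ratios lie near 1, and they crossed it under several alternatives, with an adjusted p of at least 0.272 in each case. For P12 the odds ratio was 1.001 against common regions of at least 100 bp, 1.002 after merging changed regions within 1 kb, 1.003 from centre to centre, 1.11 in a Mantel-Haenszel estimate over 2 classes of gap, and 1.18 without chromosome 2, the highest of leaving out each of 19 chromosomes. Every change of the gap limit or of the BRG1 distance gave a P12 odds ratio below 1. It was 0.836 with a gap over 5000 bp, 0.644 with a gap over 20000 bp and 0.839 within 100 kb, none passing the threshold. Within 10 kb of a P12 peak the odds ratio was 0.255 and passed the threshold (adjusted p = 0.0244 by Fisher's exact test). That adjustment covers only the 2 ages at this distance and not the other alternatives. For P18 it was 0.729 with a gap over 5000 bp, 0.988 for regions of at least 50 bp, 0.976 from centre to centre, 0 within 10 kb (0 of 263 against 1 of 141), 0.877 within 100 kb, and 0.82 without chromosome 1, the lowest of leaving out each chromosome. The causes were not tested. Leaving out a library could not be run, since no list holds values per library. No paired analysis was possible because the lists carry no value for a single library. Depth is unknown, so no value has an error from it.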
